A study of Mus musculus with 5 samples.

Results

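The regions described here carried H3K27me3 at both embryonic stages of mouse dermal fibroblasts and lay away from the promoters of protein-coding genes. Overlapping peaks of 4 separate peak lists were merged on chromosomes 1 to 19. A merged region was kept if all 4 lists had a peak in it, if no single peak reached 10000 bp and if no protein-coding start site lay within 3000 bp. This left 1368 of 24721 merged regions, out of 4228 with a peak in all 4 lists. Without the list of E18.5 replicate 2, which was the shortest, 2516 regions met the rule. Members were thus chosen by the presence of peaks, their widths and the distance to start sites, and presence in every library is not a result. The widest peak of any member measured 9982 bp and the narrowest one that kept a region out measured 10006 bp. The nearest coding start lay 3004 bp from the closest member and 2985 bp from the closest region left out. By the same rule chromosome X held 5 regions, which were not included.

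The study asked how the repressive mark changes while dermal fibroblast progenitors differentiate. H3K27me3 ChIP-seq, in which chromatin bound by an antibody to this histone mark is sequenced, was made from wild-type (WT) skin, with 2 libraries labelled embryonic day 14 (E14 in the labels, E14.5 in the study's text) and 2 labelled day 17 (E17 in the labels, E18.5 in the study's text). The stages are called E14.5 and E18.5 here. The study's text calls these samples WT and names no mutant, transgene or drug for them. Cells from dermal preparations had been expanded in culture before fixation, so they are cultured dermal cells and not tissue as it was in the embryo. The labels give no strain, sex or number of embryos per library and do not say whether the 2 libraries of a stage came from separate litters.

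H3K27me3 is written by Polycomb repressive complex 2, whose catalytic subunit is Ezh2, and is removed by demethylases such as Kdm6b. In vertebrates the complex settles on CpG-rich DNA that is not transcribed, above all at the CpG islands of developmental regulators, and the mark then spreads over neighbouring nucleosomes. Marked stretches far from promoters include CpG islands of noncoding genes, regulatory elements in the gene deserts around developmental genes, and the bodies of silent genes.

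The E14.5 lists held 21546 and 16574 peaks, those of E18.5 10429 and 7107. The 1368 regions made up between 10.9% and 13.9% of the length covered in each list. The deposited lists hold no reads, so the depth behind a peak is unknown, and list length and stage move together in these libraries. As a check of the labelled cell type, none of 7 dermal fibroblast genes (Col1a1, Col1a2, Pdgfra, Twist2, Lum, Dcn and Thy1) had a start site with a peak inside 3000 bp in any library. Of 12 marker genes of other cell types that skin can hold, 5 had a peak in all 4 libraries (Cdh1, Epcam, Kdr, Sox10 and Myod1) and 7 had none in any (Krt5, Krt14, Pecam1, Cdh5, Ptprc, Cd68 and Myog). A missing peak does not show that a gene is expressed. In a bulk library a loss of the mark in some cells cannot be told apart from less of it in every cell.

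To show what kind of DNA is meant, 4 members are printed as pairs of 180 bp windows. They are the members with the highest enrichment ranks that had both a stretch covered in all 4 libraries and a stretch that both E14.5 libraries but no E18.5 library covered. Each window sits at the middle of the longest stretch of its kind, and the capitals mark CpG dinucleotides. The sequences are the plus strand of the RefSeq reference GRCm38.
Tmem161b region, all 4 libraries, chr13:84345257-84345436: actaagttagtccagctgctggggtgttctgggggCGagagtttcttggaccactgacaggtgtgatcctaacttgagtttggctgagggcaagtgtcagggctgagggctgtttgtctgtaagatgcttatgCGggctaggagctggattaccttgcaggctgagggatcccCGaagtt
Tmem161b region, E14.5 only, chr13:84341991-84342170: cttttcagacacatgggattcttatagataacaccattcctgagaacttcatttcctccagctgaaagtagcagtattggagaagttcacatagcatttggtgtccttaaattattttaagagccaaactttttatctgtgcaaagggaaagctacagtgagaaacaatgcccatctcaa
Scrt2 region, all 4 libraries, chr2:152048406-152048585: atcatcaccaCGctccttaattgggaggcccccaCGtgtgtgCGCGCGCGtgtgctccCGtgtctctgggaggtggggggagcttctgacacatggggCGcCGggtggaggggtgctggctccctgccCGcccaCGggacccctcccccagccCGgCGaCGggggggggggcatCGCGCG
Scrt2 region, E14.5 only, chr2:152044056-152044235: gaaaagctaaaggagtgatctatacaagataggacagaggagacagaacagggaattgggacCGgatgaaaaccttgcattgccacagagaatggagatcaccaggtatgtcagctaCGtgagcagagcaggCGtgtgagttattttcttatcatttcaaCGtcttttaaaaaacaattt
Ap3b1 region, all 4 libraries, chr13:94596082-94596261: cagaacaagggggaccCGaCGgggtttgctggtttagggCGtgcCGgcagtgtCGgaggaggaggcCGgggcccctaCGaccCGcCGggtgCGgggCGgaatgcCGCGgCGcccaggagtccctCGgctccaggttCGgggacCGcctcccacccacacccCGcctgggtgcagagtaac
Ap3b1 region, E14.5 only, chr13:94599333-94599512: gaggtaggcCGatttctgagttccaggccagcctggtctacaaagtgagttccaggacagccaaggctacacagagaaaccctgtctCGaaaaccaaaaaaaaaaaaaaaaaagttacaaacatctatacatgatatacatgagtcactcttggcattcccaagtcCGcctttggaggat
Dio3 region, all 4 libraries, chr12:110188277-110188456: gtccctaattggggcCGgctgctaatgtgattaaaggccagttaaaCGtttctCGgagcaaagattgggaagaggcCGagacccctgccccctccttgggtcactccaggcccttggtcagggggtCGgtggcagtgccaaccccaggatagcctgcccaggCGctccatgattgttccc
Dio3 region, E14.5 only, chr12:110184052-110184231: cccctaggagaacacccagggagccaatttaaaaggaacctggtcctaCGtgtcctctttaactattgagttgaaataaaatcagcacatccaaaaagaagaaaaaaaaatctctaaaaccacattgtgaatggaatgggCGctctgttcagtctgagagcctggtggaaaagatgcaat
The window covered in all 4 libraries held 3, 17, 18 and 6 CpG at the Tmem161b, Scrt2, Ap3b1 and Dio3 regions. Its E14.5-only partner held 0, 4, 3 and 2. In these pairs the GC content of the windows covered in all 4 libraries was 53.9%, 73.3%, 72.8% and 60.0%, against 37.8%, 41.7%, 43.9% and 41.7% in their partners.

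Across the members the same contrast held on average. In 865 regions with at least 100 bp of each kind, the part covered in all 4 libraries had a median of 2.03 CpG per 100 bp and the part covered at E14.5 only had 1.15. The first was higher in 653 of them (75.5%). Median GC content was 50.3% and 47.0%. A like difference separated inner from outer parts within a stage. The part that both E14.5 libraries covered had a median of 1.57 CpG per 100 bp, against 1.02 in the part that 1 of them covered (higher in 951 of 1313 regions, 72.4%). At E18.5 the medians were 1.89 and 1.32 (higher in 756 of 1134 regions, 66.7%). Inner parts were thus richer in CpG than outer parts also where the stage was the same, and the share between stages was not tested against the shares within them.

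**Figure D1:**
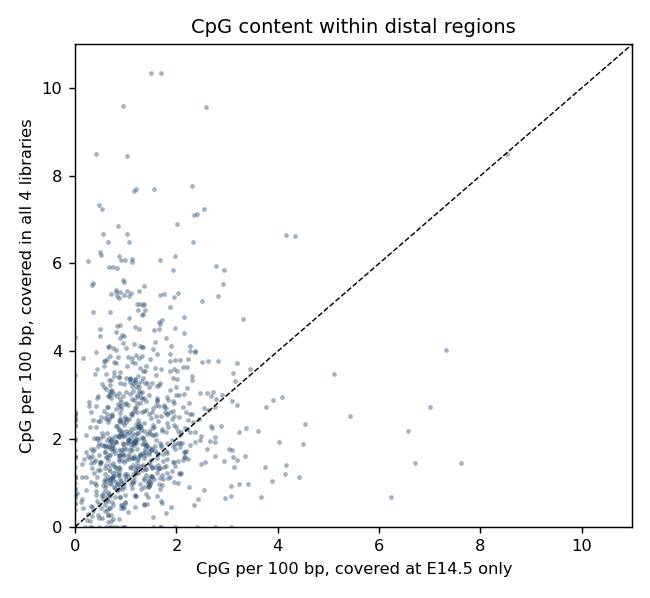
CpG per 100 bp in the part of each distal region that was covered at E14.5 only, in both libraries (x axis) against the part covered in all 4 libraries (y axis). Each point is 1 of 865 regions with at least 100 bp of each part, the dashed line marks equal values, and 653 points lie above it.

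The members were richer in CpG than the genome and poorer than marked promoters. Over whole regions the median was 1.43 CpG per 100 bp (quartiles 0.974 and 1.902), where the autosomes as a whole had 0.851. Under the same limits 2714 distal regions were marked at E14.5 only, in both lists of that stage and no other, and their median was 1.16. The 2188 regions within 3000 bp of a coding start that were marked in all 4 lists had 2.34. When the members were divided by CpG content into 4 groups of 342, the median length kept at E18.5 was 41.0%, 44.5%, 47.4% and 51.8% from the poorest to the richest group. The share that was shorter in both E18.5 libraries rose as well, with 63.5%, 69.0%, 78.1% and 86.0% in the same order. Across the 1368 regions, which share libraries, Spearman's rho between CpG content and kept length was 0.11.

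The distal regions were shorter at E18.5 than at E14.5. E14.5 peaks covered 5768 and 3931 kb of them and E18.5 peaks 2770 and 1950 kb. From a mean of 4849 ± 1299 kb (SD, n = 2) the E18.5 libraries went to 2360 ± 580 kb (SD, n = 2), which is a decrease of 51.3%. The exact permutation test over the 4 libraries (two-sided) gave p = 0.333, the smallest value that 2 against 2 libraries allow. With both E18.5 sums below both E14.5 sums this p is the same whatever the gap. It therefore measures neither the size of the change nor the spread between libraries. Per region, the E14.5 medians were 3863 and 2541 bp and the E18.5 medians 1640 and 1010 bp, which is a decrease of 58.6% (exact permutation test, p = 0.333). Both E18.5 values lay below both E14.5 values, but the libraries of 1 stage also differed. Replicate 2 covered 31.8% less than replicate 1 at E14.5 and 29.6% less at E18.5, while E18.5 replicate 1 covered 29.5% less than E14.5 replicate 2. The gap between stages at its narrowest was thus about as wide as the gap within a stage.

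**Figure D2:**
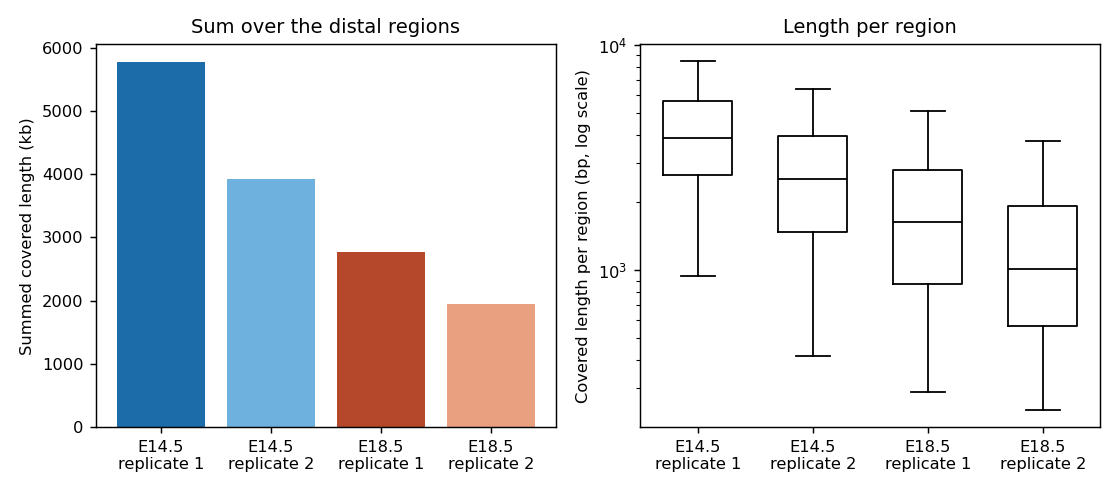
Left, covered length summed over the 1368 distal regions in each library (kb, bars from 0). Right, covered length per region (bp, log axis) as boxes of the quartiles with the median line and whiskers from the 5th to the 95th percentile. Sums fall from 5768 kb in E14.5 replicate 1 to 1950 kb in E18.5 replicate 2.

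Region by region, both E18.5 libraries were shorter than both E14.5 libraries in 1014 of 1368 members (74.1%). Over all 4228 regions with a peak in every list the same was true of 81.4%, so shortening was no more frequent among the distal regions than among marked regions in general. The count was 1821 of 2188 (83.2%) for marked promoters. In 341 members the stages overlapped, and 13 members (0.950%) were longer in both E18.5 libraries, beside 0.662% of all regions. The mean length kept at E18.5 had a median of 46.4% with quartiles of 30.9% and 65.6%, and it ran from 4.899% to 407%. The corresponding median was 54.5% for marked promoters and 64.9% for the 672 regions with a peak of 10000 bp or more. Under 25% was kept by 213 members, and 70 members had the same or a greater mean length at E18.5. Within a stage the replicates were also ordered: replicate 1 was the longer in 1183 members at E14.5 and in 990 members at E18.5.

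**Figure D3:**
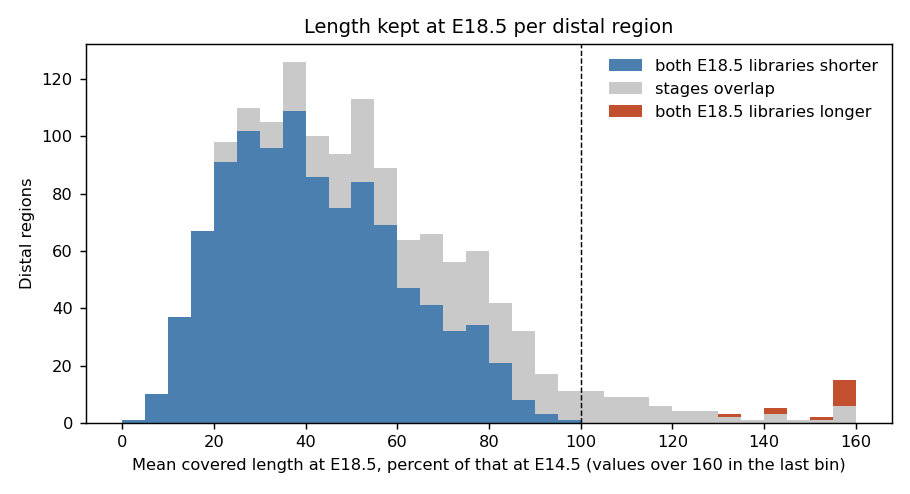
Distal regions by the mean covered length at E18.5 as a percent of that at E14.5 (bins of 5 percentage points, values over 160 in the last bin). Colours give the 1014 regions that were shorter in both E18.5 libraries, the 341 whose stages overlapped and the 13 that were longer, and the dashed line marks equal length.

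Coverage at E18.5 was lower than at E14.5 along the whole region, and coverage in every library was lowest at the edges. The edges are set by the outermost peak of any list, so a drop towards them follows from the merging. It is not read as a change between stages. At the centre of the merged regions 97.7% and 78.4% of members had a peak in the E14.5 libraries and 62.5% and 50.5% in the E18.5 libraries. At the outermost positions the E14.5 shares were 69.0% and 27.4% and the E18.5 shares 11.2% and 5.81%. Of the bases that both E18.5 libraries covered, 90.5% were also covered by both E14.5 libraries, whereas 36.8% of the bases of both E14.5 libraries were covered by both at E18.5. A stretch common to all 4 libraries was present in 1170 members (85.5%), with a median of 746 bp. In 198 members the 4 lists shared no base, although each had a peak in the merged region. A region held more than 1 peak in 3.29% of members in E14.5 replicate 1, and in 29.9%, 25.2% and 17.03% in E14.5 replicate 2 and E18.5 replicates 1 and 2. This share was highest in E14.5 replicate 2 and did not separate the stages.

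**Figure D4:**
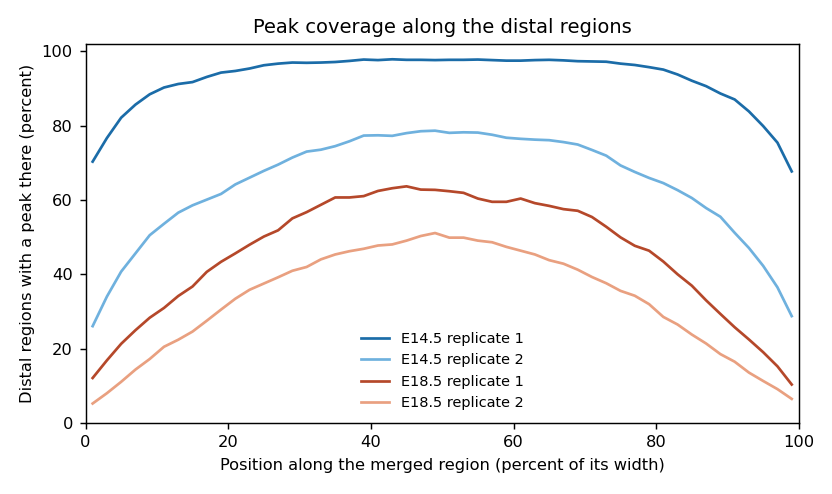
Share of the 1368 distal regions (percent) that had a peak at each position along the merged region (percent of its width), 1 line per library. At the centre the lines stand between 97.7% in E14.5 replicate 1 and 50.5% in E18.5 replicate 2. All 4 drop towards the edges, which are set by the outermost peak of any list.

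Kept length differed between groups formed by starting length. Of 4 groups of 342 regions by mean length at E14.5, the shortest (up to 2158 bp) kept a median of 55.1%, and the others kept 41.4%, 43.6% and 46.7%. Both E18.5 libraries were shorter in 51.2% of the shortest group and in 88.3% of the longest. Kept length is a share of the same E14.5 length that formed the groups, so they are linked by construction. A peak was also required in every list, which limits how far a short region can shrink. The median kept length by distance to the nearest coding start was 41.3% in the 317 regions up to 10000 bp from a start site, 45.7% in the 605 regions between 10000 and 50000 bp, 52.8% in the 212 regions up to 100000 bp, 52.7% in the 219 regions up to 500000 bp and 51.3% in the 15 regions farther away. Among the distal regions kept length was thus lowest in the group nearest to a start site and did not go on rising beyond 100000 bp. The rule leaves out regions within 3000 bp of a start site, and marked promoters kept a median of 54.5%.

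Fold enrichment, the ratio of a peak's pileup to its local background, was used only as a rank within each list, because its scale differs between libraries. The best peak of a member had a median percentile of 81.1 and 71.8 in the E14.5 lists, then 58.8 and 46.0 in those of E18.5. Marked promoters had medians of 91.3, 88.0, 79.1 and 66.6. Distal members thus ranked lower than promoters in each library, and 30 of them (2.19%) stood at or above the 90th percentile in all 4.

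Most members lay outside protein-coding genes. A coding gene body held or touched 390 of them (28.5%), beside 705 of the 2714 distal regions of E14.5 only (25.98%). The members were wider than those regions (median 4112 bp against 1674 bp), and a wider region touches a gene more readily. A further 187 members (13.7%) touched a long noncoding RNA (lncRNA) gene, 60 (4.39%) a small RNA gene, a pseudogene or another annotated gene, and 731 (53.4%) no annotated gene. Of the 390, 338 lay wholly inside the gene, 215 touched no exon and 175 touched an exon, 159 of them coding sequence. In 77 the gene that held the region was not the gene with the nearest start site. Gene bodies of 302 genes were involved. The gene model Gm20388, a readthrough model of 4.43 Mb that runs past Foxf1, held 9 members that no other coding gene held. Kept length was similar in the 4 kinds of place, with medians of 47.2% in coding genes, 47.2% in lncRNA genes, 48.2% in the small RNA and pseudogene class and 46.0% where no gene is annotated.

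The highest ranks in all 4 libraries belonged to members of mixed surroundings. The top one, chr17:48093402-48100736, lay 3720 bp from 1700067P10Rik over the lincRNA gene CAAA01189291.1. It covered 7335, 7183, 6811 and 6656 bp in E14.5 replicates 1 and 2 and E18.5 replicates 1 and 2, and its percentile lay between 99.3 and 99.9 in each. At this region the stages did not overlap, yet 92.8% of the length was kept. The Tmem161b region, chr13:84340809-84347616, was 89538 bp from that gene's start and covered 6722, 6664, 4171 and 4146 bp. Here the replicates of a stage nearly matched and the stages stood clearly apart.

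The Scrt2 region, chr2:152043465-152052358, covered 8674, 7804, 5775 and 6016 bp, 29171 bp from the start of Scrt2, a Scratch-type zinc finger repressor of the nervous system whose own promoter was marked in all 4 libraries. The Ap3b1 region, chr13:94593814-94602711, covered 8898, 6555, 3751 and 4046 bp, and Ap3b1, a subunit of a vesicle adaptor complex, had no promoter peak in any library. The Dio3 region, chr12:110183668-110192433, covered 8449, 8766, 7588 and 5607 bp and held the start of the lincRNA gene Gm34785, 86635 bp from Dio3, an imprinted deiodinase gene. At the Lhx2 region, chr2:38376823-38382205, the lengths were 5383, 4686, 3274 and 2631 bp. It lay 23021 bp from Lhx2, a LIM homeobox gene of hair follicle and forebrain. The region 3475 bp from Igf2bp3, an RNA-binding protein of fetal tissues, covered 7700, 7154, 8399 and 7648 bp, so its stages overlapped and 108% of its length was kept. Within Mzf1, a zinc finger gene, a member of 3717 bp covered 3717, 3248, 2288 and 2228 bp.

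MicroRNA genes were found at 18 members, which together had 27 such genes inside or within 3000 bp by RefSeq coordinates of GRCm38.p6, 20 of them inside. Several of these genes are known for expression in particular lineages: the Mir290 to Mir295 cluster of pluripotent cells, Mir137, Mir129-1, Mir129-2 and Mir128-2 of neurons, Mir1a-1 of heart and skeletal muscle, and Mir203 of stratified epithelium. The cluster is shown first because its mature products share seeds, the bases 2 to 8 that pair with a target, here in capitals. The 3p products miR-291a-3p, miR-294-3p and miR-295-3p have 1 seed in common, and the 5p products miR-290a-5p, miR-292a-5p and miR-293-5p have another.
mmu-miR-290a-3p: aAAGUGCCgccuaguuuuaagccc
mmu-miR-291a-3p: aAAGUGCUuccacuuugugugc
mmu-miR-294-3p: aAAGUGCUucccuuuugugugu
mmu-miR-295-3p: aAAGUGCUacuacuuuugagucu
mmu-miR-291b-3p: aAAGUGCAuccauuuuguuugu
mmu-miR-290a-5p: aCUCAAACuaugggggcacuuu
mmu-miR-292a-5p: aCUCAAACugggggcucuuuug
mmu-miR-293-5p: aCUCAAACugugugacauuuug
All lay inside 1 member of 3573 bp, chr7:3217598-3221170, within the annotated body of Nlrp12. E14.5 peaks covered 3090 and 3494 bp of it, those of E18.5 981 and 996 bp. The stages did not overlap, replicates differed little, and 30.03% of the length was kept.

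The other lineage microRNAs printed here have seeds of their own, again in capitals.
mmu-miR-137-3p: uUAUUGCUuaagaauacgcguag
mmu-miR-129-5p: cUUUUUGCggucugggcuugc
mmu-miR-129-2-3p: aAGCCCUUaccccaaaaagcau
mmu-miR-128-3p: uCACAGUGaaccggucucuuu
mmu-miR-135a-5p: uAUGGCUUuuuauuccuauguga
mmu-miR-7b-5p: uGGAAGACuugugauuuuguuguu
mmu-miR-203-3p: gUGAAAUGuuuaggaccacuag
The Mir137 region, chr3:118429364-118436929, covered 7566, 6844, 6007 and 6641 bp and kept 87.8%. Its percentile in the lists was 97.5, 96.5, 91.9 and 84.9. Mir129-2 lay in 1 of 2 neighbouring members within the lncRNA gene Mir670hg. The one that held it, chr2:94237703-94242735, covered 5033, 4588, 4395 and 2013 bp, and the one beside it, 2562 bp away, covered 9319, 5805, 4137 and 3962 bp. One more member of this gene, at Mir670, covered 4137, 2253, 1788 and 1092 bp. Mir129-1, the other source of miR-129-5p, lay 2003 bp from a member of chromosome 6 that covered 5131, 3442, 1727 and 1537 bp. Both loci of this microRNA thus had distal members, and each of these was shorter in both E18.5 libraries.

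Mir128-2 lay within Arpp21, a gene of neurons, in a member that covered 3907, 3255, 2565 and 1879 bp. Mir1a-1 lay in chr2:180383720-180389162 with the lncRNA gene B230312C02Rik, 49021 bp from Gata5. It covered 5443, 4605, 4230 and 2209 bp. The Mir203 region covered 5315, 2865, 3014 and 1476 bp, and here the stages overlapped. They also overlapped at Mir135a-1 (6604, 4602, 5825 and 4250 bp) and Mir7b (1800, 1164, 796 and 1327 bp). In all, 13 of the 18 microRNA members (72.2%) were shorter in both E18.5 libraries, close to the 74.1% of all distal members, and their kept length had a median of 53.6% and ran from 13.4% at Mir7052 to 89.9% at Mir135a-1.

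**Figure D5:**
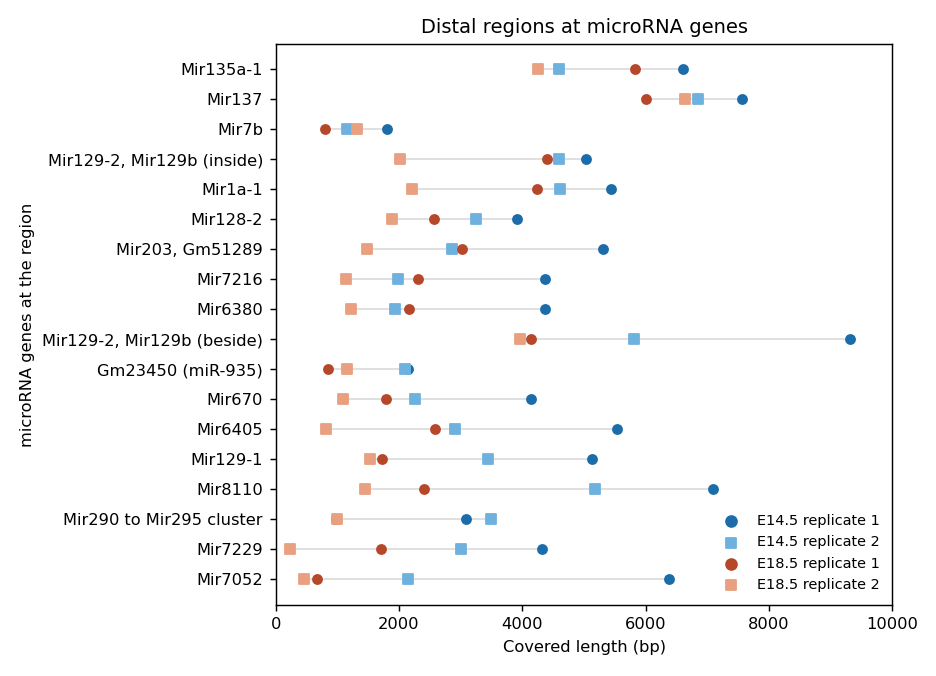
Covered length (bp) of the 18 distal regions with a microRNA gene inside or within 3000 bp, in each of the 4 libraries, ordered by the share of length kept at E18.5. Points of E18.5 lie left of both E14.5 points in 13 of the 18 rows, among them the row of the Mir290 to Mir295 cluster.

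An lncRNA start site lay inside 102 members (7.46%), and a noncoding start site of any class inside 176 (12.9%). The same held for 2.62% and 4.50% of the distal regions of E14.5 only, which were narrower, with a median width of 1674 bp against 4112 bp. Per Mb of region the members held 17.6 lncRNA genes that started inside and the E14.5-only regions 13.4. Members with a noncoding start inside kept 44.1% of their length and those with none within 3000 bp kept 47.0%. Their lowest percentile over the 4 lists had a median of 52.5, against 34.9.

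Among the noncoding starts with the highest ranks, Miat, an lncRNA of neurons and retina, lay in a member that covered 7179, 6115, 3591 and 2906 bp. Carlr lay in one of 9917 bp, chr2:18794768-18804684, which covered 9784, 9322, 4587 and 2588 bp and so kept 37.6%. Gm5089 began inside Clybl in a member that covered 7636, 5366, 3277 and 2967 bp. 1700127F24Rik lay in one that covered 5332, 5283, 4160 and 2562 bp. In each of these regions both E18.5 libraries were shorter. The same was true of 143 of the 176 members with a noncoding start inside (81.25%). It held for 74.1% of all distal members and 81.4% of all regions marked in every list. Pseudogenes were also among the noncoding starts of high rank, such as Mlnr-ps, a relic of the motilin receptor gene, whose member covered 4685, 3324, 3085 and 2144 bp. Further lncRNA genes named for or next to developmental regulators, chosen after their values were seen, were Sox2ot (3867, 3461, 1111 and 765 bp), Tbx3os1 (3302, 3014, 1866 and 2684 bp) and Fendrr next to Foxf1 (9144, 2958, 2649 and 939 bp). The coding start nearest to the Sox2ot member was that of Dnajc19, 112943 bp away, and not that of Sox2.

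The coding start nearest to a member lay at a median of 25419 bp (quartiles 10596 and 68055 bp), and 999 genes served as nearest gene, 783 of them to a single member. That gene's own promoter was marked in all 4 libraries for 569 members (41.6%) and in none for another 569 (41.6%). Among the E14.5-only distal regions the former share was 36.5%, and 12.6% of all autosomal coding genes had a promoter marked in all 4. The shares of regions count a gene again for each region nearest to it. The share of genes counts each gene once, so the measures are unlike. Kept length hardly differed between these classes of member: 47.3% where the promoter was marked in every library and 45.1% where it was marked in none.

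Many nearest genes encode transcription factors of development. Of 456 such genes, 91 (19.96%) were nearest to a total of 165 members, whereas 4.81% of all 20780 coding gene symbols were nearest to any. These 165 members were 12.1% of the total, beside 10.3% of the distal regions of E14.5 only, and the promoter of the nearest gene was marked in all 4 libraries for 146 of them. Both E18.5 libraries were shorter in 125 (75.8%). The counts of shorter members given below for single gene lists stand beside 74.1% of all distal members and 81.4% of all regions marked in every list, and no list was tested against them.

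Homeobox genes, which set position and cell fate, gave the largest group, with 49 of 191 genes and 84 members, of which 66 were shorter in both E18.5 libraries. The Pax7 region, 12566 bp from this muscle and neural crest factor, covered 9181, 6983, 4398 and 5131 bp. Within Lmx1b, which sets dorsal limb identity, a member covered 8489, 5818, 3046 and 3143 bp. The Uncx region covered 9475, 7990, 5535 and 4445 bp. In all of these the stages stood apart.

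Forkhead genes had 16 members near 7 of 41 genes, 14 of them (87.5%) shorter at E18.5, beside 74.1% of all distal members. Foxb1, a factor of the diencephalon, had one 84667 bp away that covered 9714, 6256, 5817 and 4616 bp. Foxa2, the endoderm pioneer factor, had 4 members 160096 to 318589 bp away, all shorter, with a median of 26.7% kept. Sox genes had 8 members near 7 of 18 genes, 6 of them shorter. A member 38787 bp from Sox21 covered 7402, 3109, 976 and 213 bp and kept 11.3%, while one 157659 bp from Sox2 covered 2537, 1708, 1767 and 1796 bp, with stages that overlapped.

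The T-box list had 12 members near 3 of 16 genes, most of them at Tbx3 and Tbx4, and 6 of the 12 were shorter in both E18.5 libraries. A member 24358 bp from Tbx3, a limb and mammary regulator, covered 7278, 5709, 4278 and 3656 bp, and another 66893 bp away covered 2743, 1990, 2019 and 2088 bp. Tbx4, which drives hindlimb growth, had 6 members, 3 of them shorter. Among developmental zinc finger genes, 11 of 72 were nearest to 22 members, 16 shorter. The Sall1 member that ranked highest covered 5955, 5771, 4816 and 3491 bp. Nuclear receptor genes had 6 members, all shorter, 4 of them near Nr2f2. The basic helix-loop-helix list had 15 members near 9 of 68 genes, 9 of them shorter, such as one near Olig1, an oligodendrocyte factor, with 6399, 5293, 3524 and 2634 bp.

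The Wnt list had 14 members near 11 of 60 genes, 11 of them shorter, with 6828, 6254, 4770 and 4136 bp inside Wnt3 and 8714, 7960, 5099 and 3265 bp inside Wnt3a. The TGF-beta and BMP list had 8 members near 7 of 70 genes, 5 of them shorter. Bmp4, a ligand of hair follicle mesenchyme, had one 5578 bp from its start that covered 4481, 3427, 3487 and 3582 bp and kept 89.4%, whereas the members 107993 and 115786 bp from Bmp2 kept 33.6% and 18.97%. The Fgf list had 3 members near 2 of 38 genes and the hedgehog and Notch list 1 member near 1 of 24, and all of these were shorter. Axon guidance genes had 14 members near 10 of 75 genes, and all 14 were shorter, beside 74.1% of all distal members. At Unc5a, a netrin receptor gene, the lengths were 9291, 7674, 5387 and 3901 bp.

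Potassium channel genes had 15 members near 13 of 92 genes, 12 of them shorter, and other channels and receptors 12 near 8 of 130, 8 shorter. The member inside Grin2c, an NMDA receptor subunit, covered 5804, 5726, 4027 and 3408 bp. Cadherins and protocadherins had 8 near 3 of 89 genes, of which 6 were shorter. Solute carriers had 19 members near 17 of 356 genes (4.78%), about the share over all coding genes, with 14 shorter.

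Among lists nearer to the biology of dermis, collagen and matrix genes had 23 members near 12 of 131 genes (9.16%, beside 4.81% of all coding genes), and 7 of the 23 fell to Adamtsl3. Both E18.5 libraries were shorter in 12 of the 23 (52.2%), beside 74.1% of all distal members and 81.4% of all regions marked in every list. The adipogenic list had 9 members near 3 of 17 genes (17.6%), 4 of them shorter. A member inside Prdm16, a brown fat regulator, covered 3591, 3246, 2133 and 240 bp and was shorter in both E18.5 libraries. Inside Ebf3 one covered 3182, 2196, 2715 and 1033 bp, with stages that overlapped. Another there covered 6428, 5944, 5847 and 3343 bp and was shorter in both. Ebf2 held 4 regions, of which 1 was shorter in both. The dermal papilla list had 4 members near 4 of 25 genes (16%), at Bmp4, Runx3, Sox2 and Lamc3, and 2 of them were shorter. These were 0.292% of the members, beside 0.958% of the distal regions of E14.5 only. The collagen and matrix list had 1.68% and 0.700%, and the adipogenic list 0.658% and 0.442%. None of these differences was tested. Inside Runx3 the lengths were 8711, 5672, 3415 and 2390 bp, and near Lamc3, a laminin chain, 4917, 2702, 2221 and 966 bp. Eya2, a transcriptional cofactor, had a member 27278 bp from its start that covered 5611, 3931, 4471 and 3416 bp, where the stages overlapped, and one in its body that covered 1911, 1039, 446 and 405 bp, where they did not.

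Some loci held several members, and they behaved unalike. Zfhx3, a large homeodomain zinc finger gene, was nearest to or held 8 regions over 750 kb, whose sums were 27958, 16915, 26930 and 18338 bp. Only 1 of these 8 was shorter in both E18.5 libraries and their median kept length was 109%. Adamtsl3, which encodes a matrix glycoprotein, held 7 over 169 kb with sums of 33231, 14373, 29015 and 12237 bp, none of them shorter and 74.9% kept. At both loci E14.5 replicate 1 and E18.5 replicate 1 were alike and so were the replicates 2, so the difference between replicates was wider than that between stages. Mgmt kept 93.5% over 6 regions, and 2 of them were shorter. Tle4 and Zfp703 had 4 members each, none shorter in both, with 80.4% and 75.6% kept.

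Limch1, an actin-binding regulator, had 9 regions over 270 kb that summed to 45014, 18338, 18420 and 12433 bp, of which 7 were shorter. Cadm1, a cell adhesion gene, had 6 with sums of 45032, 31739, 15258 and 11343 bp, 4 of them shorter and 23.5% kept. For Cdh22 there were 6, which summed to 30353, 21949, 12197 and 7428 bp, 5 of them shorter. Rnf220 had 5, all shorter, and Foxf1 5, of which 4 were shorter, with 31180, 18513, 12053 and 6232 bp. Loci with many members therefore ranged from a median kept length of 23.5% at Cadm1 to 109% at Zfhx3.

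The largest decreases left short remnants. A member 16623 bp from Fgf23, a hormone of phosphate balance, covered 5778, 5142, 194 and 341 bp, so 4.899% was kept. A second one 5676 bp from the same gene covered 8934, 5785, 1530 and 733 bp. Near Acot7, an acyl-CoA thioesterase gene, the lengths were 5588, 2413, 224 and 343 bp, and near Nfasc, an axonal adhesion gene, 5222, 3861, 322 and 458 bp. The remnants 16623 bp from Fgf23 and near Nfasc ranked at the 5.69th percentile of the list in E18.5 replicate 2. In E18.5 replicate 1 they ranked at percentiles 50.8 and 71.6. Apart from the member 5676 bp from Fgf23, which was named from the Fgf list, these regions were chosen for their decrease. The decrease is given as a description.

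Of the 13 members that were longer in both E18.5 libraries, the one inside Ifitm10 gained most, with 3602, 298, 8941 and 6945 bp. Its E14.5 replicates were far apart, and both lay below both E18.5 values. Wwox, an oxidoreductase gene at a common fragile site, held one with 6908, 5264, 8944 and 8699 bp. The others named by the same rule lay near Gm15217 (1720, 1067, 5011 and 3238 bp), Vtcn1, which encodes an inhibitory T cell ligand (4385, 3448, 7092 and 4802 bp), and Polr2m (2552, 1239, 3262 and 2873 bp).

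Repeated sequence was a limit at a few members. When the regions were cut into 100 bp pieces and mapped back to the reference chromosomes, 95.9% of 60686 pieces returned uniquely to their own place, and 55 members had under 50% such pieces. A group of 15 lay within 118 kb of chromosome 6 between Ezh2 and Pdia4, with between 0% and 11.1% unique pieces, and their lowest percentile over the lists ran from 0.537 to 1.63. All 15 were shorter in both E18.5 libraries. A second group comprised 20 of the 23 members under 400 bp wide. Without the 55 the summed length still decreased by 51.3%, and 965 of 1313 (73.5%) were shorter.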

How the data were processed

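H3K27me3 ChIP-seq peak lists of 4 libraries were used, 2 per stage (embryonic day 14 and 17 in the labels). The labelled input library was not analysed here. One listed cell type marker is not reported here. Per the submitters' processing notes, the authors used Bowtie2 2.3.5.1, SAMtools 1.9, MACS2 2.2.7.1 and deepTools 3.5.1 with build mm10, and called broad peaks per library at a q-value of 0.01, without pooling. The control of the peak call was not given in the sources used here, and whether a stated subsampling covers the E18.5 libraries is unclear. Labels and methods differ on medium, fragmentation and library kit. In the deposited lists each peak has a fold enrichment, a ratio of pileup to local background, and the −log10 p-value and −log10 q-value of the authors' peak caller. The lists hold no reads, so no count model or depth could be used.

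Peaks sharing 1 bp were merged, and covered length was summed per library, so a sum moves with how much was called. Fold enrichment was ranked within each list. Genes came from GENCODE vM21 (21951 coding genes) and sequences from RefSeq GRCm38.p6, in which every peak lay within its chromosome. Tools were Python 3.11.15, pandas 2.3.3, SciPy 1.17.1 and minimap2 2.31-r1302 (pieces of 100 bp, mapping quality of at least 30). Lengths were compared by an exact permutation test, and region building was tested on simulated lists. The members and the gene lists were chosen with earlier results of these data known. Named were the 12 regions of highest lowest-of-4 percentile, the 8 largest decreases among shorter regions of at least 1000 bp, the 5 largest gains, all at microRNAs, the 12 noncoding starts of highest rank, loci of 4 or more regions, up to 4 examples per gene list and the genes the study shows, of which the text gives a part. Alternatives concerned merging, peak thresholds, list length, start site distance and type, width limits, single libraries, replicate numbers and repeated sequence.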

Additional observations from a re-analysis of the deposited data

How the results depend on the processing

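Of 78 alternative values, 69 met the limits set around the main one. These were counts within 1.5 times and the share in coding genes within its 95% Wilson interval of 26.2% to 31.0%. For lengths only the same direction was asked, whatever the size. No length reversed its direction, and counts and shares could not reverse. The decrease of the summed covered length ran from 36.3% to 60.2% and that of the median length from 44.1% to 69.3%. The number of regions (1368) and of those shorter at E18.5 (1014) fell with stricter lists: to 640 and 503 at a −log10 q-value of at least 3, to 113 and 99 at 5 or more, and to 800 and 646 with the 7107 top peaks of each list. Leaving out each library in turn gave 1495 to 2516 regions, 1249 to 1888 shorter ones, decreases of 36.3% to 60.2% (sum) and 45.6% to 69.3% (median), with E14.5 replicate 1 giving the lowest decrease and E18.5 replicate 2 the highest counts when left out. Fewer lists to satisfy give more regions by construction. With start sites at least 10000 bp away, 25.02% instead of 28.5% lay in a coding gene. With the replicate block, which averages the change within each replicate number, the decreases were 51.2% (sum) and 58.9% (median). The numbers did not pair the libraries by any label, and the log2 length ratios of replicate 1 to 2 at the 2 stages correlated at 0.02 over regions. The absence of read counts limits the precision of every length. The uniqueness limit and the omission of Gm20388 (27.9% in coding genes) were chosen after seeing the data.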

Other observations

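Of the 1368 distal regions, 23 were under 400 bp wide, and 20 of these had under 50% uniquely mapping pieces. Their fold enrichment was near the bottom of each list, with median percentiles of 1.80 and 0.944 in the E14.5 lists, then 1.20 and 1.499 in those of E18.5. Both E18.5 libraries were shorter in 19 of the 20, with a median of 76.4% of the length kept.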
